A study of Mus musculus with 12 samples.

Results

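The glutathione, glucuronide and sulfate conjugation enzymes of mouse liver were followed in Mdr2-knockout and heterozygous livers at 12 and 3 months of age. The members were all probe sets of the array whose annotation named a single gene of the glutathione S-transferases (Gst, classes mu, alpha, pi, theta, omega, kappa and zeta), the microsomal glutathione S-transferases (Mgst), the UDP-glucuronosyltransferases (Ugt1 and Ugt2) or the cytosolic sulfotransferases (Sult). This rule, which used no measured value, took 49 of 22690 probe sets, which read 38 of the 12394 genes named singly on the array. The soluble glutathione S-transferases gave 25 probe sets of 18 genes, the microsomal ones 5 of 3 genes, the UDP-glucuronosyltransferases 7 of 6 genes and the sulfotransferases 12 of 11 genes. A further 5 probe sets carried several gene symbols that included a family symbol, among them those of the shared Ugt1a locus, and were left out by the rule.

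These families carry out the conjugation step of detoxification. Glutathione S-transferases join reactive electrophiles to the tripeptide glutathione, UDP-glucuronosyltransferases of the endoplasmic reticulum join hormones, bilirubin, bile acids and drugs to glucuronic acid, and sulfotransferases of the cytosol pass a sulfate group from the donor PAPS to phenols, steroids and bile acids. The products are more water-soluble and leave the hepatocyte through transporters into bile or blood. Many of the genes respond to the transcription factor NRF2, which senses electrophiles, and to nuclear receptors such as the constitutive androstane receptor and the bile acid receptor FXR.

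Mdr2 is the older name of Abcb4, the transporter that moves phosphatidylcholine into bile. Without it, bile salts are not buffered by phospholipid, and Mdr2-knockout mice are a known model of chronic bile duct injury with later liver tumours. Total liver RNA of 12 male mice had been hybridised to an Affymetrix mouse array, and the signals were those of the MAS 5.0 software. The groups, of 3 mice each, were homozygous knockout livers at 12 months, heterozygous livers at 12 months, homozygous knockout livers at 3 months and heterozygous livers at 3 months. Every control mouse therefore carried 1 knockout allele, and no wild-type liver is among the samples analysed here. The RNA came from bulk liver, so a change in the number of cells of a type and a change in RNA per cell cannot be told apart.

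Abcb4 itself had signals of 293.2, 243.4 and 332.2 in the 12-month knockout livers, against 591.8, 601.3 and 675.4 in the 12-month heterozygous livers. At 3 months it had 280.8, 295.5 and 385.7 in the knockout livers, against 728.7, 677.9 and 763.3 in the heterozygous livers. The knockout values lay below the heterozygous ones at both ages, but the signal was not lost, and where its probes lie relative to the deletion is not given in the sources used here. For mouse 1 of both 3-month groups a second label gave 12 months in place of 3. The title was followed, and member calls that changed without both of these mice are named beside the results. No such values are given for the marker and list genes. Over all probe sets, 1609 were called at 3 months without both mice, against 2749 with them.

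The scan times recorded with the arrays fell into 3 sessions, and no session held both genotypes at the same age. Session 1 held the 3 heterozygous 12-month livers and 1 heterozygous 3-month liver, session 2 held 2 knockout 12-month livers and 2 heterozygous 3-month livers, and session 3 held the 3 knockout 3-month livers and 1 knockout 12-month liver. A fit with the session as a block could therefore separate genotype from session only through the few arrays that bridge the groups. At 12 months these were session 2 and mouse 1 of the 3-month heterozygous group, alone of its group in session 1. At 3 months they were session 2 and mouse 3 of the 12-month knockout group, alone of its group in session 3. A call kept with the block thus rests in part on 1 array. Over all probe sets this fit gave 91 calls at 12 months, against 1228 without the block, and 416 at 3 months, against 2749. The 3′ to 5′ signal ratio of actin, a measure of RNA integrity, averaged 2.79 ± 0.44 in 12-month knockout, 3.64 ± 0.56 in 12-month heterozygous, 4.92 ± 1.59 in 3-month knockout and 7.0 ± 1.64 in 3-month heterozygous livers (SD, n = 3 each). Mouse 3 of the 12-month knockout group stood apart: 9 hepatocyte markers summed to 30317.7, against 47034.1 and 43327.4 in mice 1 and 2 of that group and 48192.8 to 53191.5 in 12-month heterozygous livers. Its array was the only one of the group in session 3 and was run with another fluidics script than most arrays. It also had the highest 10th percentile of signal (9.4). Liver and array handling cannot be told apart for this mouse.

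Markers of some other cells also differed between the genotypes. The summed signal of 10 cholangiocyte markers was 4498 to 6494 in 12-month knockout livers against 2227.4 to 3378.5 in heterozygous ones, and 6046.3 to 6925.6 against 2625.3 to 2809.6 at 3 months. Most of it came from Krt8 and Krt18, with means of 2187.1 and 2698.2 in 12-month knockout and 1032.8 and 1490.6 in 12-month heterozygous livers. The sum therefore mainly reflects Krt8 and Krt18 and is no measure of bile duct cells alone. The 10 macrophage markers summed to 4221.8 to 4774 against 2139.5 to 2444.3 at 12 months, and 3905.8 to 6347.4 against 1967 to 2172 at 3 months. The 10 stellate cell and fibroblast markers summed to 2585.9 to 3070.6 against 1360.5 to 1740 at 12 months, and 3024.3 to 3534.8 against 1392.7 to 1534.3 at 3 months. Of the tested markers, 3 of 5 cholangiocyte, 5 of 9 macrophage and 5 of 9 stellate genes were called higher at 12 months, and 5 of 5, 7 of 9 and 5 of 9 at 3 months, with 1 macrophage gene lower at 3 months. The cholangiocyte calls at 12 months were Krt8, Krt18 and Cdh1, while Epcam and Krt23 were not called (limma, adjusted p = 0.238 and 0.252). In the stellate list Col1a1, Des, Acta2 and Rgs5 were called at neither age. With the session as a block, only Cdh1 and Lyz2 kept a higher call at 12 months (limma, adjusted p = 0.0227 and 0.00498). At 3 months Cdh1, Krt8, Krt18, Csf1r, C1qa, C1qc, Lyz2, Col3a1, Dcn, Lum and Pdgfrb kept it. No tested endothelial (5), T and natural killer (1), B and plasma cell (2) or neutrophil (2) marker was called higher at either age. At 3 months 1 endothelial and 1 B and plasma cell marker were lower. Hepatocyte genes were called lower in 2 of 9 cases at 12 months and in 1 of 9 at 3 months, where 1 was higher. No hepatocyte marker lay in the lowest 10% of signals on the arrays of a group. The part of these cells, and of RNA integrity, in the enzyme results was not tested except where a value is given.

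Of the 49 member probe sets, 40 (31 genes) reached the median signal of their array on at least 3 of the 12 arrays and were tested, and 36 did so on all 12. Genotypes were compared at each age with limma on log2(signal + 16), fitted to all 12976 probe sets that passed this filter, and a call needed a p, adjusted over all of them by Benjamini and Hochberg, under 0.05. At 12 months, 6 of the 40 members (15%) were called higher and 5 (12.5%) lower in knockout livers, where 5.86% and 3.60% of all tested probe sets were called. At 3 months, 7 members (17.5%) were higher and 4 (10%) lower, against 9.55% and 11.6% of all tested probe sets. The share of members called higher was thus above the share of all probe sets at both ages, and the share called lower was above it at 12 months only. The median change of the members was -0.14 at 12 months and -0.00 at 3 months on the log2 scale, beside -0.00 and -0.06 for all tested probe sets.

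The genes called higher at either age were Gstm3, Gstm2, Gstm5, Gsta4, Mgst3, Ugt2b37 and Sult1d1, and the genes called lower were Sult5a1, Sult1b1, Ugt2b1, Gstp3, Gsto1 and Gstt3. Together these were 14 probe sets of 13 genes. The other 26 tested members ranged over changes of -0.55 to 0.54 at 12 months and -0.59 to 0.54 at 3 months and passed the test at neither age. Of the higher calls, 5 were made at both ages, which is 83.3% of those at 12 months and 71.4% of those at 3 months (64.7% and 39.7% among all tested probe sets). Of the lower calls, 3 were made at both ages, 60% and 75% of each list (40.7% and 12.6% among all tested).

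**Figure D1:**
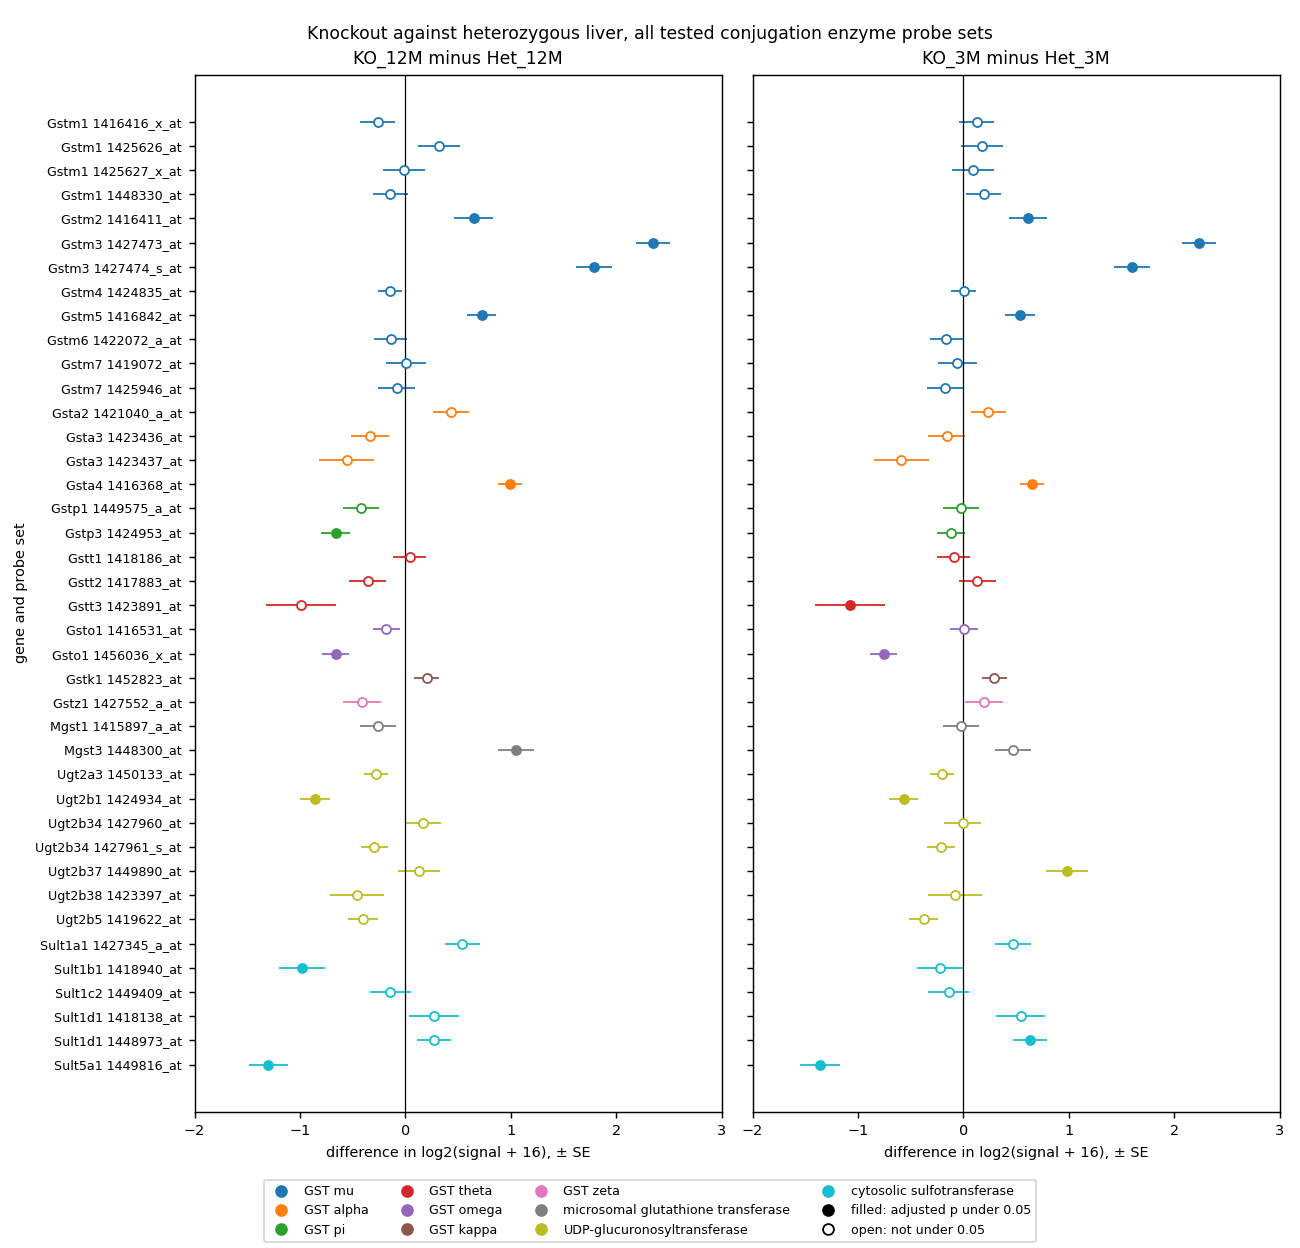
Difference between knockout and heterozygous livers in log2(signal + 16) for all 40 tested conjugation enzyme probe sets, with its standard error, at 12 months (left) and 3 months (right), coloured by family. Filled points had an adjusted p under 0.05; the 2 Gstm3 probe sets stand farthest to the right at both ages and Sult5a1 farthest to the left.

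The widest contrast lay inside the mu class, whose 7 measured genes sit side by side on chromosome 3 in the order Gstm5, Gstm7, Gstm6, Gstm3, Gstm2, Gstm1, Gstm4. The promoter sequences of the 3 genes that rose, and 1 of the 2 annotated promoters of Gstm1, which did not pass the test, are shown. Over windows of 300 bases (250 before to 50 after the start), the Gstm1 promoter shown has 59.82% identity to that of Gstm3 and the other 48.31%. The sequences are given so that they can be set against each other. Each is the 250 bases before the annotated start of transcription in RefSeq (GRCm38.p6), written 5′ to 3′ on the strand of the gene. Capitals mark a match to TGACNNNGC, the core of the antioxidant response element that NRF2 binds, searched on both strands.
Gstm5 (chr3:107895604-107895853, plus strand): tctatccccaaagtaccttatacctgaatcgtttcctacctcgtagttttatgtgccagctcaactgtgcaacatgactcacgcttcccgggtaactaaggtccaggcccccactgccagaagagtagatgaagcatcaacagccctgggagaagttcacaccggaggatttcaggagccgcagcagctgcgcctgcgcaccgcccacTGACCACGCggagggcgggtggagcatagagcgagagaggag
Gstm3 (chr3:107969175-107969424, minus strand): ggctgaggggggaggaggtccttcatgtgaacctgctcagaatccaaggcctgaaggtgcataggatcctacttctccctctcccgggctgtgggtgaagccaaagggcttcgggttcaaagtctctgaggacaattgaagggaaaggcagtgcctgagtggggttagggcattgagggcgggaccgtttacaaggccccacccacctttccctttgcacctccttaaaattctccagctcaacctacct
Gstm2 (chr3:107986421-107986670, minus strand): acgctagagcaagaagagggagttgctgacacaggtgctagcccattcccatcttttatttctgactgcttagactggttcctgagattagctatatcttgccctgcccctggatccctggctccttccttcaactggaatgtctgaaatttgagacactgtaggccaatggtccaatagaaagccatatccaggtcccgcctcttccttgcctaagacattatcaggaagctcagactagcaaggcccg
Gstm1 (chr3:108017819-108018068, minus strand): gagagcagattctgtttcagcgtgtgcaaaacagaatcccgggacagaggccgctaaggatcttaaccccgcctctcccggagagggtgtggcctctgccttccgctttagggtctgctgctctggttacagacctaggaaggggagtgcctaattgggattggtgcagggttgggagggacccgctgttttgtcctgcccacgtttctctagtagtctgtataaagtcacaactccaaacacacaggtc
Of these 4 windows, only that of Gstm5 held the motif, as TGACCACGC. The xenobiotic response element core GCGTG, bound by the aryl hydrocarbon receptor, overlaps that match on the other strand. In windows of 250 bases before to 50 after the start, available for 34 of the 38 genes, 4 of 44 (9.09%) held TGACNNNGC on either strand, beside 12.4% of all 32851 promoters in the table. The 4 were promoters of Gsta3, Gstm5, Gstm7 and Mgst1. GCGTG was present in 11 of 44 (25.0%) member promoters and in 32.4% of all. Over the 21 pairs of mu genes, taking for each the most similar pair of windows, identity was 59.82% for Gstm1 with Gstm3 and 48.85 to 53.94% for the other pairs.

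Gstm3, a mu-class transferase that activators of NRF2 induce in mouse liver, showed the largest change of the 40 tested members. Probe set 1427473_at had signals of 1553.2, 1546.3 and 1477.1 in 12-month knockout livers, against 281.8, 244.1 and 343.5 in 12-month heterozygous livers. At 3 months it had 1658.2, 1544.2 and 2433.1 in knockout livers, against 358.6, 402.6 and 375.2 in heterozygous livers. The lowest knockout liver lay several times above the highest heterozygous liver at each age. The mean signals differed 5.26-fold at 12 months and 4.96-fold at 3 months, with log2 changes of 2.35 ± 0.16 (adjusted p = 1.54e-07) and 2.23 ± 0.16 (adjusted p = 2.83e-07; limma, SE, n = 3 in each group).

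The second Gstm3 probe set, 1427474_s_at, has a design suffix for probes shared by several transcripts, and it moved the same way. It had signals of 4066.2, 4125.8 and 3203.7 in 12-month knockout livers, against 902.5, 1166.3 and 1202.4 in heterozygous livers. The 3-month knockout livers had 5154.9, 3543.7 and 5210.6, against 1397.6, 1712.0 and 1398.4 in the 3-month heterozygous livers. Here too the groups were apart at both ages, with log2 changes of 1.79 ± 0.17 and 1.60 ± 0.17 (limma, adjusted p = 5e-06 and 1.23e-05). Both Gstm3 calls were kept with the session as a block at both ages, with changes of 2.26 and 1.76 at 12 months and 2.27 and 1.90 at 3 months. Within session 2 alone, the 2 knockout livers of 12 months exceeded the 2 heterozygous livers of 3 months by 1.95 and 1.40 on the log2 scale. This contrast joins genotype with age. It is a part of the block estimates of both ages and no separate check of them.

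Gstm2 and Gstm5, a mu transferase best known from brain and testis, rose by less. Gstm5 had signals of 279.3, 278.9 and 367.9 in 12-month knockout livers, against 174.1, 184.8 and 179.2 in heterozygous livers. In the 3-month groups it had 227.0, 211.2 and 213.8 in knockout livers, against 131.3, 161.6 and 142.6 in heterozygous livers. The genotypes did not overlap at either age, and the log2 changes were 0.72 ± 0.14 and 0.54 ± 0.14 (limma, adjusted p = 0.0031 and 0.0123). With the session as a block the Gstm5 changes were 0.41 (adjusted p = 0.572) and 0.10 (adjusted p = 0.848), and the 3-month call was also lost without mouse 1 of the heterozygous group (0.47, adjusted p = 0.0531) and without the 2 mice of conflicting label (0.45, adjusted p = 0.11).

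Gstm2 had signals of 548.2, 480.4 and 695.6 in 12-month knockout livers, against 351.9, 340.4 and 380.4 in heterozygous livers. Signals at 3 months were 450.8, 499.5 and 780.8 in knockout livers, against 318.7, 395.3 and 374.4 in heterozygous livers. A single knockout liver in each group was well above the other members of that group, and the genotypes did not overlap. The log2 changes were 0.65 ± 0.18 and 0.61 ± 0.18 (limma, adjusted p = 0.0342 and 0.0262), and they were 0.24 and 0.10 with the session as a block (adjusted p = 0.86 and 0.89). The 12-month call was lost when knockout mouse 1 or 3 or any heterozygous mouse was left out (changes of 0.50 to 0.69). The 3-month call was lost without heterozygous mouse 1 or 3 (0.53 and 0.64) and without knockout mouse 3 (0.38, adjusted p = 0.115).

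The other mu genes did not pass the test at either age. Gstm1, an abundant mu form of the liver, was read by 4 probe sets with changes of -0.26 to 0.32 at 12 months and 0.09 to 0.19 at 3 months. Gstm4 changed by -0.15 and 0.00, Gstm6 by -0.14 and -0.16, and the 2 Gstm7 probe sets by 0.00 and -0.08 at 12 months and -0.06 and -0.17 at 3 months, all on the log2 scale. In total 4 of 12 mu probe sets, of 3 of the 7 genes, were called at each age and none lower. Because mu genes are close paralogs, probes of one may read another, and this could not be checked here.

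**Figure D2:**
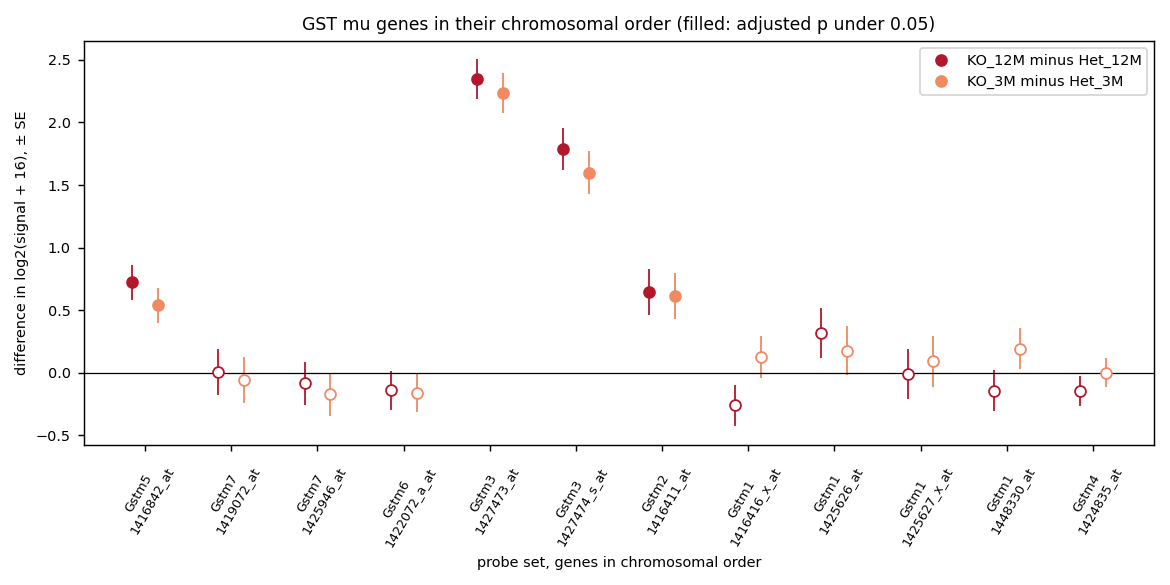
Knockout minus heterozygous difference in log2(signal + 16) with its standard error for the 12 mu-class probe sets, placed in the order of their genes on chromosome 3, at 12 months (dark) and 3 months (light). Filled points had an adjusted p under 0.05; Gstm5, Gstm3 and Gstm2 lie above 0 at both ages, while Gstm7, Gstm6, Gstm1 and Gstm4 lie near 0.

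In the alpha class, Gsta4 rose at both ages. Its enzyme conjugates hydroxynonenal and related products of lipid peroxidation. Signals were 1124.0, 1222.5 and 1142.5 in 12-month knockout livers, against 547.5, 615.2 and 569.1 in heterozygous livers. At 3 months they were 1086.3, 982.4 and 1038.4 in knockout livers, against 641.2, 622.1 and 698.1 in heterozygous livers. The spread within each group was small beside the distance between genotypes. The mean was 2.015-fold at 12 months and 1.584-fold at 3 months, with log2 changes of 0.99 ± 0.11 and 0.65 ± 0.11 (limma, adjusted p = 2.96e-05 and 0.000773). With the session as a block the sizes stayed at 0.97 and 0.68, while the adjusted p became 0.0606 and 0.0998.

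The remaining alpha genes were not called. Gsta2 changed by 0.43 at 12 months and 0.24 at 3 months. Gsta3, whose mouse enzyme detoxifies the epoxide of aflatoxin, was read by 2 probe sets, which changed by -0.34 and -0.55 at 12 months and by -0.16 and -0.59 at 3 months. Between ages in heterozygous livers (12 minus 3 months) the same 2 probe sets differed in sign, at 0.55 and -0.67, so that the array gives no settled age change for Gsta3.

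Among the microsomal transferases, membrane enzymes related to those of leukotriene synthesis, Mgst3 rose at 12 months. Signals of probe set 1448300_at were 371.8, 359.8 and 504.2 in 12-month knockout livers, against 208.2, 178.4 and 180.9 in heterozygous livers. The 3-month knockout livers had 400.4, 283.0 and 438.9, against 229.7, 299.1 and 259.3 in the 3-month heterozygous livers, and here the groups overlapped. The log2 change was 1.05 ± 0.17 at 12 months (limma, adjusted p = 0.000947) and 0.47 ± 0.17 at 3 months (adjusted p = 0.0645). The difference of these changes, 0.58, did not pass the test (adjusted p = 0.27), and with the session as a block the 12-month change was 0.64 (adjusted p = 0.462). Mgst1, an abundant microsomal form of hepatocytes, changed by -0.26 and -0.02 and was not called.

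In the pi class, Gstp3 fell at 12 months. Gstp3 lies near Gstp1, the pi transferase that is abundant in the liver of male mice, with Gstp2 between them. Gstp3 had signals of 3922.3, 4020.8 and 3118.5 in 12-month knockout livers, against 5640.7, 6025.2 and 5757.9 in heterozygous livers. At 3 months it had 6666.9, 5025.0 and 6010.1 in knockout livers, against 6210.0, 6719.3 and 6204.3 in heterozygous livers. The 12-month knockout livers were below every other liver, while the genotypes overlapped at 3 months. The log2 changes were -0.66 ± 0.13 (limma, adjusted p = 0.00477) and -0.12 ± 0.13 (adjusted p = 0.563). Their difference, -0.54, had an adjusted p of 0.19.

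Gstp1 had signals of 6653.4, 6142.0 and 4068.3 in 12-month knockout livers, against 6836.9, 7757.6 and 7561.4 in heterozygous livers. Signals at 3 months were 9655.8, 7345.8 and 7894.3 in knockout livers, against 8659.4, 9252.4 and 7350.4 in heterozygous livers. The lowest value belonged to 12-month knockout mouse 3, which had the low hepatocyte marker sum and an array that was also handled differently. Gstp1 passed the test in neither comparison of genotypes, with log2 changes of -0.42 ± 0.17 (limma, adjusted p = 0.147) and -0.02 ± 0.17 (adjusted p = 0.937). Without that mouse the Gstp3 change at 12 months was -0.55 and still passed (adjusted p = 0.0106), and with the session as a block it was -0.60 (adjusted p = 0.259).

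For Gsto1, an omega transferase that reduces dehydroascorbate and mixed disulfides, 2 probe sets gave different answers. Probe set 1456036_x_at, with a design suffix for probes that may bind other transcripts, had 311.6, 255.1 and 253.6 in 12-month knockout livers, against 438.8, 409.7 and 471.9 in heterozygous livers. At 3 months it had 417.6, 335.9 and 379.9 in knockout livers, against 648.9, 641.6 and 649.0 in heterozygous livers. The genotypes were apart at both ages, with log2 changes of -0.66 ± 0.13 and -0.76 ± 0.13 (limma, adjusted p = 0.00311 and 0.000718). Probe set 1416531_at changed by -0.18 and 0.01 (adjusted p = 0.458 and 0.982), so that a fall of Gsto1 rests on 1 of its 2 probe sets. With the session as a block the changes of 1456036_x_at were -0.60 and -0.61 (adjusted p = 0.369 and 0.184).

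Of the theta genes only Gstt3 was called, at 3 months. Its signals were 67.6, 120.0 and 45.2 in 12-month knockout livers, against 177.6, 135.4 and 169.3 in heterozygous livers. The 3-month knockout livers had 38.0, 79.7 and 49.9, against 187.9, 65.9 and 176.6 in the 3-month heterozygous livers. The genotypes overlapped at 3 months through mouse 2 of the heterozygous group. The log2 changes were -0.99 ± 0.33 (limma, adjusted p = 0.0749) and -1.08 ± 0.33 (adjusted p = 0.0298). The 3-month call was lost under 10 of the alternatives tried, and the change was -0.05 with the session as a block (adjusted p = 0.974). Without the 2 mice of conflicting label it was -0.66 (adjusted p = 0.288). It was -0.85 without heterozygous mouse 1, -0.89 without heterozygous mouse 3, -0.89 without knockout mouse 1 and -1.04 without knockout mouse 3, and none of these passed. Gstt1 and Gstt2 changed by 0.04 and -0.36 at 12 months and by -0.09 and 0.13 at 3 months.

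Gstk1, the kappa enzyme of mitochondria and peroxisomes, had log2 changes of 0.20 and 0.29, and Gstz1, which acts as maleylacetoacetate isomerase in tyrosine breakdown, had -0.41 and 0.19. Neither was called at either age.

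**Figure D3:**
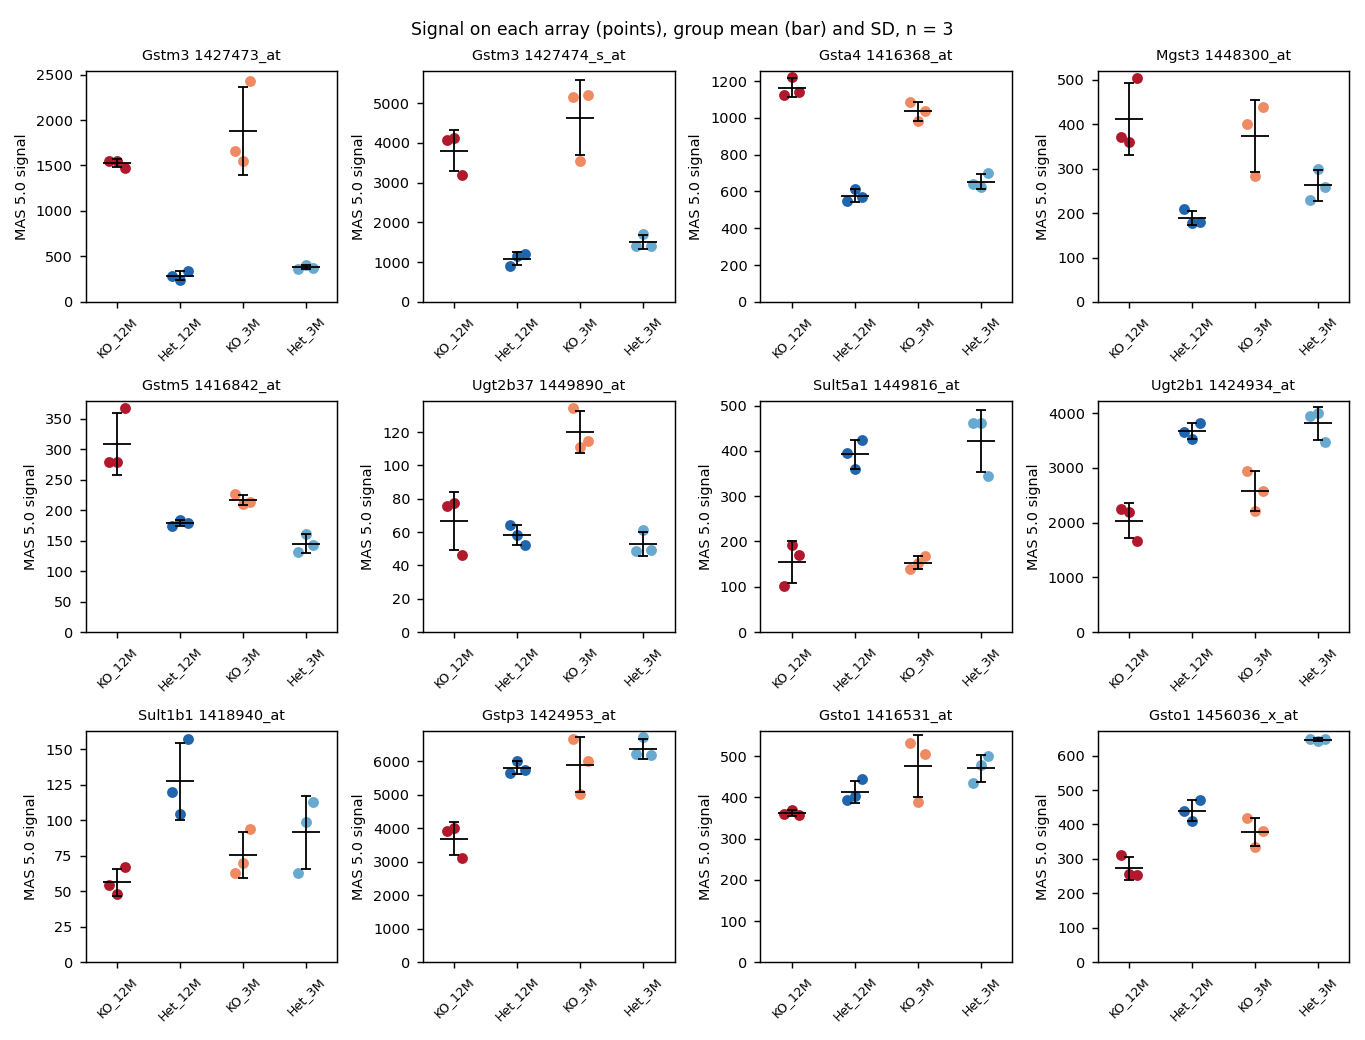
MAS 5.0 signal of 12 tested probe sets of 10 member genes on each array (points), with the mean (bar) and SD of the 3 livers in each group, ordered as 12-month knockout, 12-month heterozygous, 3-month knockout and 3-month heterozygous. Gstm3 and Gsta4 separate the genotypes at both ages, Ugt2b37 is high in the 3-month knockout group, and the 2 Gsto1 probe sets differ in pattern; each panel has its own scale, starting at 0.

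Of the UDP-glucuronosyltransferases, Ugt2b1 fell at both ages. In the rat the enzyme of this name glucuronidates phenols such as bisphenol A. Signals were 2248.2, 2190.3 and 1668.8 in 12-month knockout livers, against 3661.2, 3526.2 and 3821.8 in heterozygous livers. At 3 months they were 2948.1, 2210.6 and 2573.2 in knockout livers, against 3950.4, 4003.1 and 3472.7 in heterozygous livers. All knockout livers were below all heterozygous livers of their age. The mean was 55.47% of that of heterozygous livers at 12 months and 67.67% at 3 months. The log2 changes were -0.86 ± 0.14 and -0.57 ± 0.14 (limma, adjusted p = 0.000922 and 0.0099). With the session as a block the changes were -0.64 and -0.13 (adjusted p = 0.266 and 0.777), and with the actin 3′ to 5′ ratio as a covariate the 3-month change was -0.48 (adjusted p = 0.0767). Without 3-month knockout mouse 2 it was -0.46 (adjusted p = 0.0528).

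Ugt2b37 was the one Ugt gene called higher, and this at 3 months. Its signals were 75.6, 77.6 and 46.3 in 12-month knockout livers, against 64.3, 58.4 and 52.4 in heterozygous livers. Signals at 3 months were 134.3, 110.8 and 114.5 in knockout livers, against 48.4, 61.1 and 49.0 in heterozygous livers. The 3-month knockout livers were above every other liver, and at 12 months the genotypes overlapped. The log2 changes were 0.13 ± 0.20 (limma, adjusted p = 0.765) and 0.98 ± 0.20 (adjusted p = 0.00277), the 3-month mean being 2.27-fold. The 3-month call was kept with the session as a block, at 1.51 (adjusted p = 0.0242). That value runs through mouse 3 of the 12-month knockout group, the only one of its group in session 3. The signal of this mouse (46.3) was the lowest of its group. The difference of the changes, -0.85, did not pass the test (adjusted p = 0.162).

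The other tested Ugt genes were not called, and most of their changes were below 0. Ugt2b5 changed by -0.40 and -0.38 (limma, adjusted p = 0.0843 and 0.0646), with all knockout livers below all heterozygous livers at both ages. Ugt2a3 changed by -0.28 and -0.20, Ugt2b38 by -0.46 and -0.08, and the 2 probe sets of Ugt2b34 by 0.16 and -0.30 at 12 months and -0.01 and -0.21 at 3 months. These genes lie in 1 cluster on chromosome 5, in which Ugt2b5 is followed directly by Ugt2b37 in the annotation, so that a gene that rose at 3 months has as neighbour a gene that was not called and had a negative change.

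The sulfotransferases held the largest fall of the 40 tested members. Sult5a1, the sulfotransferase of family 5, had signals of 101.5, 192.3 and 170.4 in 12-month knockout livers, against 394.3, 360.3 and 423.9 in heterozygous livers. In the 3-month groups it had 140.1, 153.0 and 167.5 in knockout livers, against 462.1, 461.9 and 343.7 in heterozygous livers. No knockout liver came near a heterozygous one at either age. The mean was 0.39 and 0.36 times that of heterozygous livers, with log2 changes of -1.30 ± 0.19 and -1.36 ± 0.19 (limma, adjusted p = 0.000319 and 0.000136). With the session as a block the 3-month call was kept, at -1.55 (adjusted p = 0.0375), and the 12-month one was not, at -1.18 (adjusted p = 0.194). Within session 2, knockout livers of 12 months were lower than heterozygous livers of 3 months by a log2 change of -1.41. This contrast joins genotype with age and is a part of the block estimates of both ages.

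Sult1b1, which sulfates thyroid hormones and phenols, fell at 12 months. Its signals were 54.5, 47.9 and 66.8 in 12-month knockout livers, against 120.2, 104.8 and 157.4 in heterozygous livers. The 3-month knockout livers had 62.8, 70.0 and 93.8, against 63.1, 98.9 and 113.0 in the 3-month heterozygous livers. The genotypes were apart at 12 months and overlapped at 3 months. The log2 changes were -0.98 ± 0.22 (limma, adjusted p = 0.00842) and -0.22 ± 0.22 (adjusted p = 0.508), and the difference of -0.76 had an adjusted p of 0.243. The 12-month call was kept with the session as a block, at -1.70 (adjusted p = 0.0445). That value runs through mouse 1 of the 3-month heterozygous group, of conflicting label, the only one of its group in session 1. The signal of this mouse (63.1) was the lowest of its group.

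Sult1d1, an enzyme of catecholamine sulfation in the mouse that lies next to Sult1b1 on chromosome 5, was called higher at 3 months by 1 of its 2 probe sets. Probe set 1448973_at had 256.9, 226.6 and 272.5 in 12-month knockout livers, against 236.8, 185.2 and 196.7 in heterozygous livers. At 3 months it had 275.5, 251.9 and 316.3 in knockout livers, against 135.6, 190.2 and 208.6 in heterozygous livers. The genotypes overlapped at 12 months and not at 3 months. The log2 changes were 0.27 ± 0.16 (limma, adjusted p = 0.341) and 0.63 ± 0.16 (adjusted p = 0.0122). The other probe set, 1418138_at, changed by 0.27 and 0.54 (adjusted p = 0.538 and 0.11). The 3-month call was lost with the session as a block (0.30, adjusted p = 0.561), without mouse 1 of the heterozygous group (0.46, adjusted p = 0.0649) and without the mice of conflicting label (0.47, adjusted p = 0.102).

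Sult1a1, the main phenol sulfotransferase of the liver, was just outside the threshold. Its signals were 3225.9, 4843.6 and 3375.4 in 12-month knockout livers, against 2482.1, 2578.7 and 2666.5 in heterozygous livers, and 2943.1, 3528.6 and 2240.7 in 3-month knockout livers, against 1955.5, 2149.4 and 2072.5 in heterozygous livers. All knockout livers were above all heterozygous livers of their age, but the changes of 0.54 ± 0.17 and 0.47 ± 0.17 did not pass the test (limma, adjusted p = 0.0551 and 0.0578). Sult1c2 changed by -0.14 at both ages.

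The 9 members that failed the filter had signals of 1.0 to 50.4, with medians over the 12 arrays of 2.6 to 25.6, and entered only the alternative fit without a filter. They were the probe sets of Sult1c1, Sult1e1 (oestrogen sulfotransferase), Sult2a2 (a hydroxysteroid and bile acid sulfotransferase), Sult2b1 (a sterol sulfotransferase), Sult3a1, Sult4a1 and Mgst2, for which no other probe set was tested, and the second probe sets of Mgst1 and Mgst3. The oestrogen, sterol and hydroxysteroid sulfotransferases among the members thus lay below the filter.

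**Figure D4:**
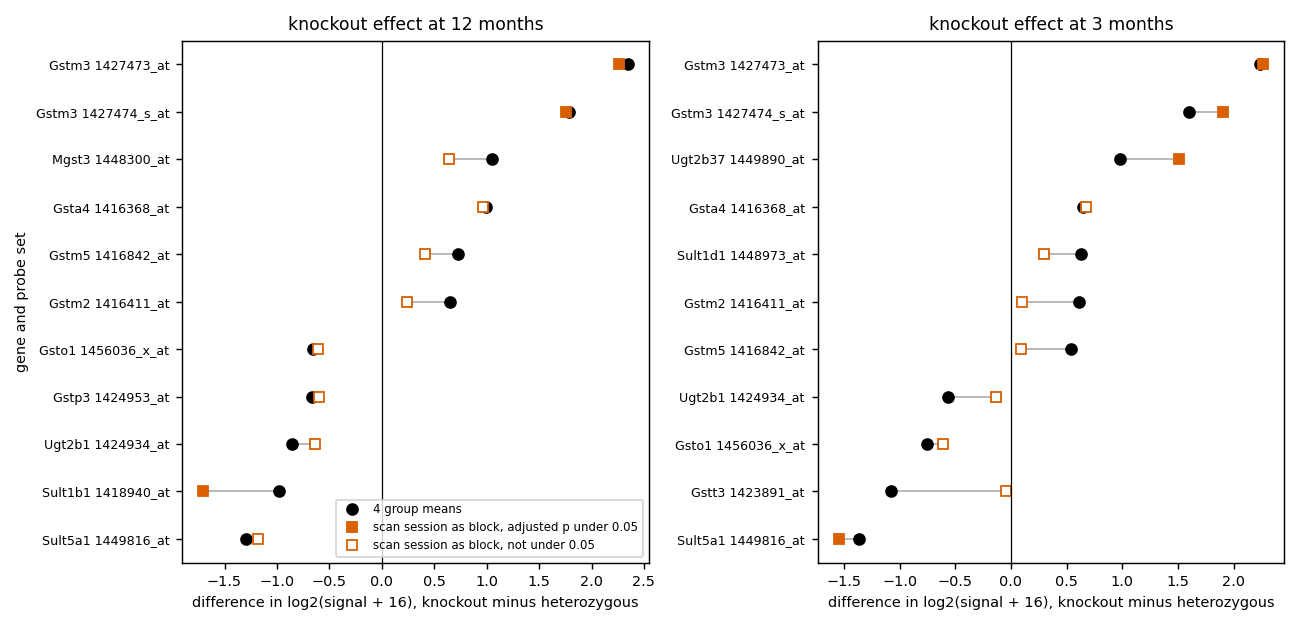
Log2 difference between knockout and heterozygous livers for the called members, at 12 months (left) and 3 months (right), from the fit of 4 group means (circles) and with the scan session as a block (squares, filled where the adjusted p was under 0.05). Of 11 calls at each age, 3 at 12 months and 4 at 3 months were kept; the squares of Gstm3, Gsta4, Gsto1 and Sult5a1 lie near their circles, while those of Gstt3, Gstm2 and Ugt2b1 at 3 months move toward 0.

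The knockout effects at both ages were also compared with each other. No member was called in this difference by limma (0 of 40), where 0.393% of all tested probe sets were called higher and 0.324% lower. At an unadjusted p under 0.05 there were 6 members (15%), a share near the 15.3% of all tested probe sets. They were Ugt2b37 (-0.85), Sult1b1 (-0.76), Gstz1 (-0.61), Gstp3 (-0.54), Mgst3 (0.58) and Gsta4 (0.34), given as 12-month minus 3-month change on the log2 scale. So although Mgst3, Sult1b1 and Gstp3 were called at 12 months only, and Ugt2b37, Sult1d1 and Gstt3 at 3 months only, a difference between the ages was not shown for any of them.

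Between the ages within the knockout livers, 1 of 40 members (2.5%) was called higher and 4 (10%) lower at 12 months than at 3 months, beside 5.79% and 3.15% of all tested probe sets. Gstm5 was higher by 0.47 ± 0.14 (limma, adjusted p = 0.0479), while Ugt2b37 changed by -0.74 ± 0.20 (adjusted p = 0.0319), Gstp3 by -0.68 ± 0.13 (adjusted p = 0.00941), Gstp1 by -0.58 ± 0.17 (adjusted p = 0.0464) and Gsto1 probe set 1456036_x_at by -0.45 ± 0.13 (adjusted p = 0.041). The members' median was -0.19, beside 0.10 for all tested probe sets. None of these 5 calls held under every alternative. The calls of Gstm5, Gstp1, Gsto1, Ugt2b37 and Gstp3 were lost under 22, 18, 18, 9 and 3 alternatives. Leaving out any single mouse, of either genotype, ended the Gstm5 call, and several single mice did so for Gstp1, Gsto1 and Ugt2b37. Without 12-month knockout mouse 3, for example, the calls of Gstm5, Ugt2b37, Gstp1 and Gsto1 were lost (changes of 0.34, -0.55, -0.37 and -0.40). Without the mice of conflicting label all 5 were lost, that of Gstp3 at -0.58 (adjusted p = 0.0551). The actin 3′ to 5′ ratio was 2.79 ± 0.44 in 12-month and 4.92 ± 1.59 in 3-month knockout livers (SD, n = 3 each), and with it as a covariate all 5 calls were also lost, with limma adjusted p of 0.102 for Gstm5, 0.19 for Gstp3, 0.231 for Ugt2b37, 0.342 for Gsto1 and 0.402 for Gstp1. Over all probe sets, that covariate gave 35 calls, against 1160 without it. Scaling each array to a common median in place of a common trimmed mean gave 0 higher and 21 lower calls here, and 11 higher and 2 lower at 3 months for the knockout effect, with the median of all probe sets shifted to -0.20 and 0.11.

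In heterozygous livers, no member was called between 12 and 3 months (limma, 0 of 40, with 7, or 17.5%, at an unadjusted p under 0.05, where 16.5% of all tested probe sets had one), beside 0.717% of all tested probe sets called higher and 0.432% lower. The changes of the members ranged from -0.67 to 0.59 with a median of -0.13. Gsto1 probe set 1456036_x_at changed by -0.54 ± 0.13 (limma, adjusted p = 0.0514), beside -0.45 in knockout livers, so its fall with age was not particular to the knockout. The other probe sets called between ages in knockout livers changed here by 0.28 (Gstm5), 0.11 (Ugt2b37), -0.13 (Gstp3) and -0.18 (Gstp1).

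The genes that supply and surround these enzymes were read from lists of 83 genes, of which 68 were tested by their brightest probe set. In knockout livers 7 of the 68 were called higher and 9 lower at 12 months, and 10 higher and 6 lower at 3 months. Of all tested probe sets, 5.86% were called higher and 3.60% lower at 12 months, and 9.55% and 11.6% at 3 months. With the session as a block 0 list genes were called at 12 months and 1 (Gss) at 3 months. Among NRF2 regulators and its reference targets, 3 of 13 were higher at both ages: Nfe2l2, which encodes NRF2, by 0.58 ± 0.17 and 0.76 ± 0.17, Txnrd1 (thioredoxin reductase) by 0.66 ± 0.15 and 0.66 ± 0.15, and Srxn1 (sulfiredoxin) by 0.64 ± 0.18 and 0.63 ± 0.18. Gpx2, a glutathione peroxidase, was lower at 3 months (-1.01 ± 0.30). The other tested targets of this list were called at neither age. They were Nqo1 (0.30 and 0.19), Hmox1 (0.55 and 0.37), Ephx1 (0.15 and 0.17), Me1 (-0.32 and -0.31) and Aox1 (-0.14 and -0.19). The regulators Keap1, Mafg, Mafk and Bach1 were not called either. The list median was 0.30 at 12 months and 0.17 at 3 months. Gclc and Gclm were not in this list and are given below with glutathione synthesis.

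Glutathione synthesis and salvage showed no common direction, with medians of 0.06 and 0.01 over 11 genes. Ggct, a cyclotransferase of glutathione breakdown, was higher at 12 months (0.86 ± 0.19). At 3 months Gss, glutathione synthetase (0.80 ± 0.12), and Oplah, oxoprolinase (0.67 ± 0.13), were higher. Gclc, the catalytic subunit of the rate-limiting enzyme of glutathione synthesis, was lower at that age (-0.68 ± 0.13). Gclm, of the same list, was called at neither age (0.19 and -0.45, limma, adjusted p = 0.605 and 0.104).

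On the side of glucuronic acid and sulfate supply, Gusb, the lysosomal glucuronidase that splits glucuronides, was higher at both ages (0.63 ± 0.19 and 0.60 ± 0.19), and Ugp2, which makes UDP-glucose, at 3 months (0.38 ± 0.12), of 8 genes tested. Papss2, a PAPS synthase, was lower at 12 months (-0.85 ± 0.17), and at 3 months Bpnt2, a phosphatase of PAPS metabolism, was lower (-0.91 ± 0.18) and Arsa, an arylsulfatase, higher (0.47 ± 0.15), of 10 genes tested. None of the 6 tested export transporters (Abcc1, Abcc2, Abcc3, Abcc5, Abcc6 and Abcg2) was called by limma at either age.

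A further list held 10 tested enzymes, all conjugating except the hydrolase Ephx2. Of these, As3mt (an arsenic methyltransferase, 0.86 ± 0.23) and Hnmt (histamine methyltransferase, 0.72 ± 0.21) were higher at 12 months. Inmt (indolethylamine methyltransferase, -1.16 ± 0.19), Ephx2 (soluble epoxide hydrolase, -0.67 ± 0.12) and Glyat (glycine acyltransferase, -0.57 ± 0.11) were lower. At 3 months Nnmt (nicotinamide methyltransferase, 1.56 ± 0.28) and Hnmt (0.68 ± 0.21) were higher and Ephx2 lower (-0.47 ± 0.12). Of 10 receptors and regulators, 5 were lower at 12 months: Ppara (-0.84 ± 0.18), the constitutive androstane receptor Nr1i3 (-0.77 ± 0.16), the growth hormone receptor Ghr (-0.73 ± 0.14), the bile acid receptor Nr1h4 (-0.66 ± 0.13) and Hnf4a (-0.39 ± 0.12). At 3 months 2 were lower, Nr1i3 (-0.57 ± 0.16) and Hnf4a (-0.35 ± 0.12), and the list medians were -0.40 and -0.05. Nr1h4 was the only gene of these lists whose knockout effect differed between the ages by the test of the difference (-0.95 ± 0.19, limma, adjusted p = 0.0309), a call that was lost with the session as a block (adjusted p = 0.1).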

How the data were processed

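Livers of 12 mice, 3 in each of 4 groups taken from the sample titles, were analysed. The deposited values are intensity signals that the authors extracted with MAS 5.0, per the series design text; the array scaling is not stated, but the trimmed means lay between 149.975 and 149.981. Signals were scaled to a common trimmed mean, 16 was added and log2 taken. The 64 control probe sets were left out. The limma fit (version 3.58.1, R 4.3.3, intensity trend) had 4 group means and 8 residual degrees of freedom, and the p-values measure the spread between mice. Probe sets were named through the platform annotation, and no member symbol needed an update. Members and lists were chosen with earlier results of these data known. Named members are up to 8 called each way in a comparison of genotypes and up to 4 in the others, and of the lists up to 2 each way, with Nfe2l2, Srxn1, Glyat, Ppara, Nr1i3 and Hnf4a added, for at least 1 age, after their values were seen. The uncalled genes of the NRF2 list, Gclm and some cell type markers were also named after their values were seen. Alternatives changed the offset, filter, scaling, samples, blocks and covariates. Scan sessions were split at gaps over 35 minutes. Promoters were aligned globally (Biopython 1.88). The script was tested on simulated data. Arrays give no read depth, and their number limits the precision.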

Additional observations from a re-analysis of the deposited data

How the results depend on the processing

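Under 27 alternative settings no named change reversed; of the alternative values of the 27 named calls, 607 kept their call and 117 lost it. The calls of both Gstm3 probe sets at both ages, of Sult1b1 at 12 months and of Sult5a1 and Ugt2b37 at 3 months were kept under every alternative that tested them. The scan session as a block left 2 higher and 1 lower calls at 12 months and 3 higher and 1 lower at 3 months; 7 calls at 12 months and 2 at 3 months were lost under that setting alone, and the cause was not tested. The actin ratio as a covariate gave 8 lower calls at 12 months. Median scaling gave 11 higher and 2 lower at 3 months. Leaving out single livers gave 5 to 7 higher and 5 to 6 lower calls at 12 months, and 4 to 8 higher (4 without mouse 1 of the 3-month heterozygous group) and 3 to 6 lower at 3 months. The age effect in knockout livers, 5 calls, gave 21 with median scaling, 3 with quantile normalization, 2 without the filter, without the intensity trend, without the arrays with a fluidics error or without those of the other fluidics script, and 0 with only the groups compared, with the ratio as a covariate or without the arrays of conflicting label; leaving out single livers gave 1 to 6. In heterozygous livers 1 call came with an offset of 64, a filter of 6 of 12 arrays, only the groups compared or the other fluidics script left out, and 0 to 1 without single livers. The difference of the knockout effects, which the setting with only the groups compared cannot give, had 0 calls under every other alternative run. The mouse numbers were also used as a replicate block: it gave 7 higher and 5 lower calls at 12 months, 8 and 4 at 3 months, 3 for age in knockout livers and 0 for the difference. Livers of the same number deviated together (r over 0.1) in 1 of 18 pairs, with r from -0.23 to 0.18, and livers of different numbers in 8 of 36. With 3 livers in a group and scan session mixed in, this measure cannot tell whether the numbers mark a pairing. Signal limits the 9 untested members, and scan session and genotype cannot be told apart within an age.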
